A study of Mus musculus with 4 samples.

Results

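The 36 genes described here encode the enzymes that build cholesterol and fatty acids, the proteins that sense sterols, and the proteins that move, export or store them. They were chosen by symbol, and all 36 were found among the 50600 genes of the count tables. The data are 4 RNA-seq libraries from primary cells of C57BL/6NJ mice, all labelled regulatory T cell, a CD4 T cell type that restrains immune responses. They are numbered as biological replicates 1 to 4, and every library has a separate biosample but the same 1 donor record. No treatment, sex or age is given in the labels, and the column names of the files carry the words mmTreg and activated with a mark of 0 h. The labels also point to a CD4 T cell differentiation protocol, and the library protocol is named for poly(A)-selected RNA although the assay is given as total RNA-seq. All libraries form 1 group with no control, so the genes were compared with each other within a library, and the spread over libraries was described. Nothing in the labels says that the biosamples came from separate animals, so the spread may in part be technical.

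Total counts ran from 23000465 to 62090744 per library, and the libraries with fewest counts were replicates 3 and 1. Levels are given as TPM, counts per exon length scaled to the same sum in every library, as mean ± SD over the 4 libraries. T cell markers were all detected, led by Trac, and summed to 5996 to 6346 TPM. The 6 markers of regulatory T cells summed to 283 to 306 TPM, nearly all of it from Izumo1r (167 TPM) and Tnfrsf18 (107 TPM). The other 4, the defining factor Foxp3 (8.28 TPM, from 7.39 to 9.46), Ctla4 (7.77 TPM), Il2ra (5.52 TPM) and Ikzf2 (1.34 TPM), were far lower, and these include genes that define the labelled cell type. The 6 B cell markers, led by Ighd, summed to 17.9 to 52.5 TPM. Of the 2 CD8 T cell markers Cd8b1 had 39.95 TPM and Cd8a 0.794 TPM, below the detection threshold. Macrophage markers summed to 14.7 to 17.7 TPM, mostly from Cd68, and the dividing cell markers, led by Top2a, to 5.12 to 8.16 TPM. Markers of granulocytes, led by S100a9, reached at most 2.52 TPM in sum, with no count for Mpo and Elane, and those of red cells and platelets, led by Hbb-bs, at most 3.31 TPM, with none for Pf4. Dendritic cell markers, led by Itgax, reached at most 1.17 TPM and stromal markers, led by Col1a1, at most 0.218 TPM. The adipocyte markers reached at most 0.207 TPM in sum, from Adipoq and Fabp4, and Plin1, Cidec and Lep had no count.

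Cells make cholesterol from acetyl-CoA through mevalonate, isoprenoid units and squalene, which is closed into a ring and trimmed to cholesterol. The pathway is run by transcription factors called SREBPs, which stay in the endoplasmic reticulum, bound to the escort Scap and the anchors Insig1 and Insig2, while sterols are plentiful, and which are cut and sent to the nucleus when sterols are scarce. Excess sterol is exported by ABC transporters, whose genes are targets of the oxysterol receptors called LXR, or stored as esters. T cells raise sterol and fatty acid synthesis when they are activated and begin to divide.

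Of the 36 genes, 35 reached 1 TPM in all 4 libraries, and Fads2 was the exception. Of all genes counted, 23.1% reached that level, and among protein-coding genes 45.7%. At 5 TPM in all libraries, 32 of the 36 remained above the threshold. The highest was Npc2 at 533 ± 18.4 TPM, at percentile 98.46 of the protein-coding genes with a count, and the lowest was Fads2 at 0.398 ± 0.121 TPM. The plot of levels by library shows that differences between genes were far larger than those between libraries for nearly all of them.

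**Figure D1:**
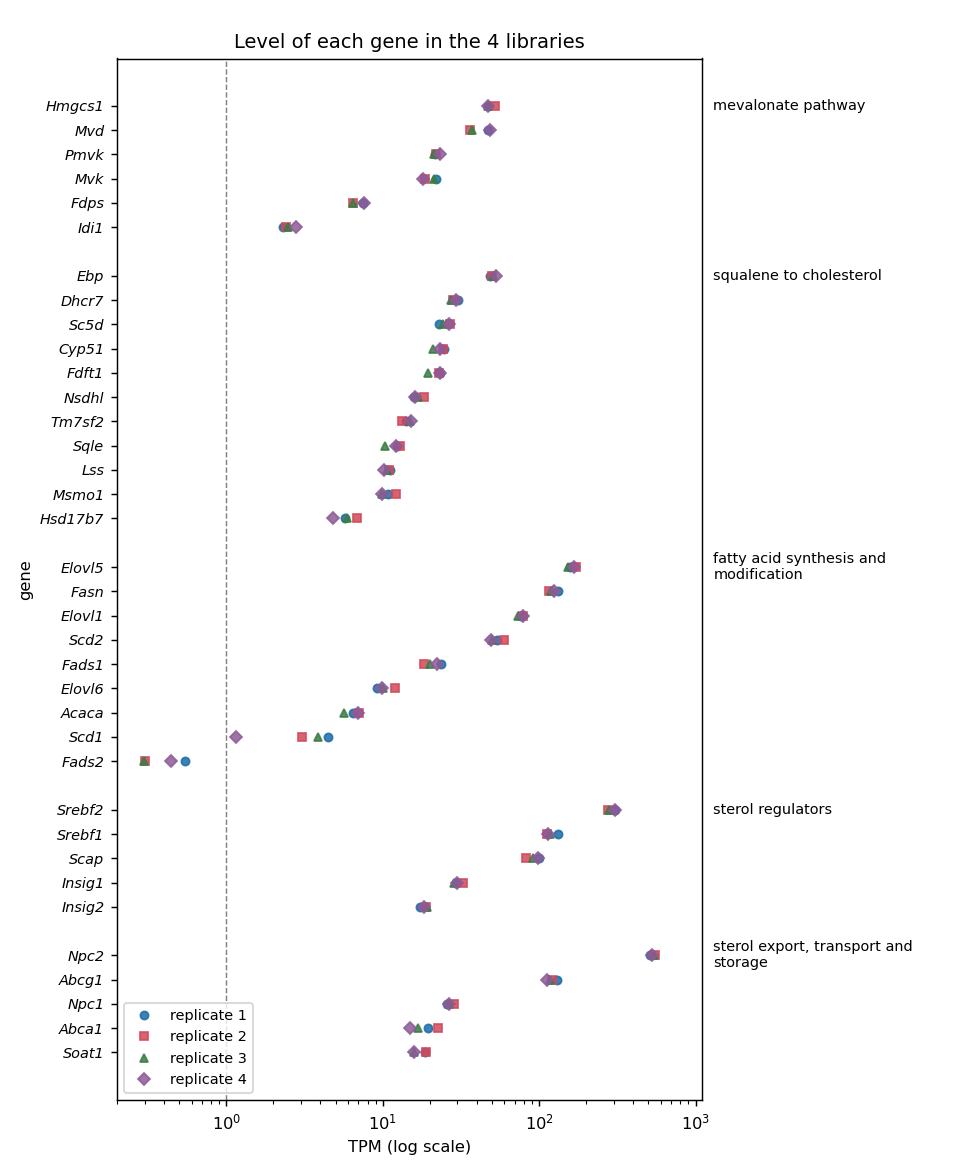
Level of each of the 36 genes in TPM on a log axis, grouped by role and ordered by mean within a group. Each symbol is 1 library (replicates 1 to 4), and the dashed line marks 1 TPM. Npc2 and Srebf2 lie highest, Fads2 lies left of the line in all 4 libraries, and Scd1 shows the widest spread among genes above it.

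The 6 enzymes of the mevalonate pathway, which turn acetyl-CoA units into farnesyl diphosphate, were all detected, with a median of 20.9 ± 0.676 TPM. Hmgcs1, which condenses acetyl units at the entry of the pathway, lay at 47.3, 52.03, 47.3 and 46.9 TPM in replicates 1 to 4. Replicate 2 was the high one, and the other 3 lay close together. Mvd, the decarboxylase that makes the first isoprenoid unit, lay at 47.2, 35.9, 37.2 and 48.4 TPM. Replicates 1 and 4 were thus above replicates 2 and 3. Its coefficient of variation, 15.5%, was the highest among the cholesterol enzymes, while the ratio of highest to lowest library was wider for Hsd17b7 (1.44-fold against 1.35-fold). The mevalonate kinases Mvk and Pmvk were close to each other, at 19.98 ± 1.92 and 21.9 ± 0.853 TPM.

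The last enzymes of this stage were the lowest of it. Fdps, the farnesyl diphosphate synthase, had 7.46, 6.47, 6.44 and 7.599 TPM in replicates 1 to 4. Idi1, the isomerase of isoprenoid units, had 2.32, 2.39, 2.48 and 2.802 TPM and was the lowest of all 17 cholesterol enzymes. Both levels carry a limit of the counting, because fragments with several alignments were left out. For Fdps 51.9% and for Idi1 42.2% of 50-base words sampled from their transcripts also occur in transcripts of other genes, read on either strand. In the annotation used for counting, 26.7% of the exon bases of Fdps also lie in exons of Gm43738 on the same strand. The level of Fdps was 13.96 ± 1.25 TPM when the median length of its protein-coding transcripts was used in place of the summed exon length.

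The promoter of Hmgcs1 is shown because it alone among the genes with a sequence carried the sterol regulatory element searched for, and those of Npc2 and Abca1 because the first had the highest level and the second varied between libraries. Each runs from 250 bases before to 50 bases after the start, in the gene's own direction, from RefSeq on GRCm38.p6 (mm10). Capitals mark the element TCACNCCAC and the CCAAT box, the latter read as CCAAT or, on the other strand, ATTGG. The windows are chr13:119690101-119690400 on the plus strand for Hmgcs1, chr12:84773063-84773362 on the minus strand for Npc2, and chr4:53159846-53160145 on the minus strand for Abca1.
Hmgcs1: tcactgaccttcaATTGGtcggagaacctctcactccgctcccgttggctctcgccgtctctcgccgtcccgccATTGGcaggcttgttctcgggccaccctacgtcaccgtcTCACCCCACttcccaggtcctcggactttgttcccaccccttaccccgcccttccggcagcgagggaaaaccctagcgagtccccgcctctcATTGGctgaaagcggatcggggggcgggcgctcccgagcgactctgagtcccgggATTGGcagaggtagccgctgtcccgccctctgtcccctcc
Npc2: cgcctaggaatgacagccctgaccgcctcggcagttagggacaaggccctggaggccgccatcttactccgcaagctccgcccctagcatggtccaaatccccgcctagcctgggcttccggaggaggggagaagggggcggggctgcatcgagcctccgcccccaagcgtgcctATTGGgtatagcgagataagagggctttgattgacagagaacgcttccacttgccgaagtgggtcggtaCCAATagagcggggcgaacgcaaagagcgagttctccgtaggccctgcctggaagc
Abca1: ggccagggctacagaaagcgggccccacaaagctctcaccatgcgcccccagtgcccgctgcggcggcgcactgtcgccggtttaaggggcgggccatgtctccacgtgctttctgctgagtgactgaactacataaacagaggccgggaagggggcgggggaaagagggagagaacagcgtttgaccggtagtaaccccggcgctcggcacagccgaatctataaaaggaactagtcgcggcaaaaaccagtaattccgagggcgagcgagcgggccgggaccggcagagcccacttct

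A RefSeq window was matched for 28 of the 36 genes, and the 8 without one were Abcg1, Fads1, Fdft1, Fdps, Npc1, Scd1, Scd2 and Sqle. Some genes have several windows, and a gene was counted when any of them held a match. Matches were sought on both strands, and matches of different motifs may share bases, as ATTGG and GGGCGG can. The element TCACNCCAC, one form of the site that SREBPs bind, lay in Hmgcs1 alone, starting 137 bases before the start, so in 1 of 28 genes (3.57%), against 1.44% of all 27025 genes with a window. The CCAAT box lay in 23 of 28 genes (82.1%), against 41.1% of all genes with a window and 43.4% of protein-coding genes at 1 TPM in all libraries. All 14 enzymes of cholesterol synthesis with a window had it, while 3 of 6 genes of fatty acid synthesis did. The GC box GGGCGG lay in 23 of 28 genes (82.1%), against 70.4% of protein-coding genes at 1 TPM in all libraries. The LXR direct repeat, AGGTCA followed by NNNN and AGGTCA again, lay in none of the 28 genes and in 4 of all 27025, so these exact letters are rare everywhere. A match describes letters and is no sign that a factor binds there.

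The 11 enzymes from squalene to cholesterol were all detected, with a median of 16.8 ± 1.16 TPM. Ebp, the sterol isomerase, was the highest at 48.8, 50.1, 50.5 and 52.98 TPM in replicates 1 to 4. Dhcr7, which makes the final reduction to cholesterol, followed at 28.8 ± 1.39 TPM and Sc5d, the desaturase before it, at 25.2 ± 1.97 TPM. Cyp51, which removes a methyl group from lanosterol, had 23.3 ± 1.76 TPM, and Fdft1, the squalene synthase, 22.1 ± 1.85 TPM. Sqle, the squalene epoxidase at a control point of the pathway, had 12.3, 12.8, 10.3 and 12.2 TPM. It was lowest in replicate 3, as were Fdft1 and Cyp51, but none of these differences passed the test given further on.

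Lss, which closes the ring, had 10.7 ± 0.447 TPM, Msmo1, the methyl sterol oxidase, 10.7 ± 1.11 TPM, Nsdhl, the sterol dehydrogenase, 16.8 ± 1.16 TPM and Tm7sf2, a sterol reductase, 14.3 ± 0.834 TPM. Hsd17b7, the keto reductase that acts with Nsdhl, was the lowest at 5.75, 6.88, 5.87 and 4.79 TPM. Together the 17 cholesterol enzymes summed to 346 to 370.4 TPM per library. No enzyme of the route was below 1 TPM in any library. Fdft1 shares 32.9% of its sampled words with other genes, so its level may be too low. With transcript lengths Tm7sf2 (22.98 TPM) and Msmo1 (19.96 TPM) lay above Cyp51 (16.2 TPM) and Fdft1 (11.997 TPM). The order between Ebp, still highest, and Hsd17b7, still lowest, thus depends on the length used.

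The 5 sterol regulators were all detected, with a median of 92.9 ± 7.91 TPM. Srebf2, the SREBP most tied to cholesterol genes, lay at 307, 275, 279.9 and 304 TPM in replicates 1 to 4, at percentile 96.66 of protein-coding genes with a count. Srebf1, the SREBP most tied to fatty acid genes, lay at 133, 112, 118 and 114 TPM. The 2 genes did not overlap in any library, and Srebf2 was 2.45-fold higher, a log2 ratio of 1.29 ± 0.09 (SD, n = 4). The counts join all transcripts of a gene, so forms of Srebf1 were not separated. Scap, the escort that senses sterols, had 99.7, 82.2, 91.7 and 97.9 TPM.

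The anchors were lower than their partner. Insig1 had 29.3, 32.4, 28.5 and 29.7 TPM and Insig2 had 17.3, 18.99, 19.2 and 18.2 TPM, without overlap. The log2 ratio of Insig1 to Insig2 was 0.70 ± 0.09, but -0.57 with transcript lengths in place of exon lengths, so their order depends on the length used. Srebf2 lies on mm10 chromosome 15, 82147181 to 82205379, Insig1 on chromosome 5, 28071363 to 28078662, and Insig2 on chromosome 1, 121304353 to 121332589, per GENCODE M21.

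Among genes of export, transport and storage, the highest was Npc2, the soluble carrier that lifts cholesterol out of the lysosome, at 509.7, 552, 542 and 528 TPM in replicates 1 to 4. Npc1, the membrane protein that takes the cholesterol over from it, lay at 26.9 ± 1.05 TPM, and the log2 ratio of Npc2 to Npc1 was 4.31 ± 0.03, the tightest of the 8 ratios. With transcript lengths it was 3.25. The exporter Abcg1 had 130.2, 120.3, 117 and 112 TPM, and the exporter Abca1 had 19.5, 22.6, 16.9 and 15.1 TPM. Abcg1 was the higher in every library, with a log2 ratio of 2.70 ± 0.21, which was 1.36 without the length correction. Soat1, which stores cholesterol as esters, had 17.4 ± 1.69 TPM, with replicates 1 and 2 above replicates 3 and 4.

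The 9 genes of fatty acid synthesis spanned the widest range. Fasn, the fatty acid synthase, had 132, 115, 119 and 124 TPM in replicates 1 to 4, while Acaca, the carboxylase that feeds it, had 6.43, 7.06, 5.66 and 6.98 TPM. Acaca shares 36.1% of its sampled words, read on either strand, with other genes, and whether this lowered its level was not tested. Among the elongases, Elovl5, which acts on polyunsaturated chains, was the highest at 158, 173, 154 and 166 TPM. Elovl1, which makes very long saturated chains, had 77.1 ± 2.76 TPM and Elovl6, which lengthens the product of the synthase, 10.2 ± 1.19 TPM. The log2 ratio of Elovl5 to Elovl6 was 3.98 ± 0.11 and that of Elovl1 to Elovl6 was 2.91 ± 0.15. Without length they were 3.12 and 1.68, so the order stayed while the sizes depend on the scale.

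The desaturases were uneven in both of their families. Scd2 and Scd1, which put the first double bond into saturated chains, lie near each other on mm10 chromosome 19, at 44293674 to 44306864 and 44394455 to 44407879. Scd2 had 53.7, 59.3, 50.1 and 48.9 TPM in replicates 1 to 4, and Scd1 had 4.498, 3.04, 3.87 and 1.15 TPM. The log2 ratio of Scd2 to Scd1 was 4.18 ± 0.80, with the highest ratio, 5.29, in replicate 4, where Scd1 was lowest. They share 5.31% and 7.61% of their sampled words with other genes, mainly Scd3 and each other.

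Fads1 and Fads2, which put further double bonds into polyunsaturated chains, are also neighbours on chromosome 19, at 10182888 to 10196877 and 10062765 to 10101746. Fads1 had 23.6, 18.4, 19.9 and 22.4 TPM. Fads2 had 6, 8, 3 and 12 counts in replicates 1 to 4, or 0.548, 0.303, 0.298 and 0.444 TPM, and was too low for the test of spread. The log2 ratio of Fads2 to Fads1 was -5.43 ± 0.20 with 0.1 TPM added and -3.98 with 1 TPM added, so its sign is read and its size is not.

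**Figure D2:**
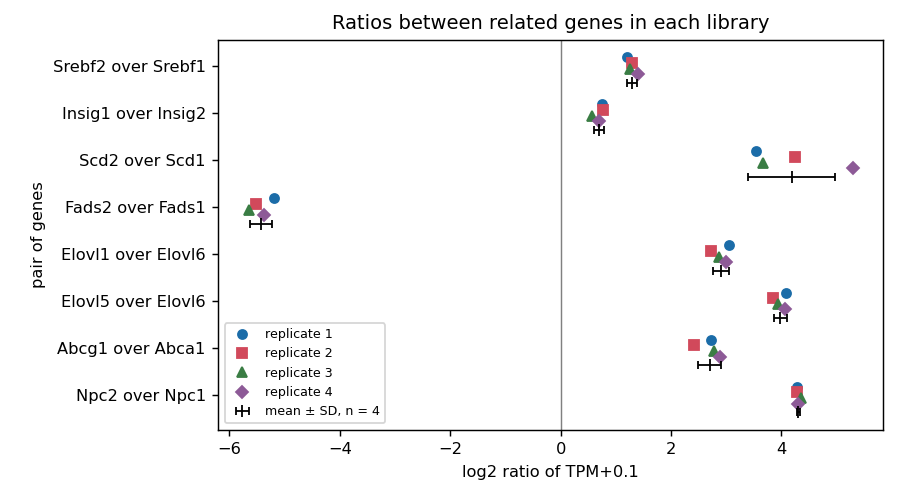
Log2 ratio of TPM+0.1 for 8 pairs of related genes. Each symbol is 1 library, and the bar is the mean ± SD over 4 libraries. Every pair lies on 1 side of 0 in all 4 libraries, and Scd2 over Scd1 has the widest spread, from 3.55 to 5.29.

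Each of the 8 ratios kept its sign across all 4 libraries. An exact sign-flip permutation test, two-sided, gave p = 0.125 for every ratio, and 0.125 after Benjamini-Hochberg adjustment over the 8. With 4 libraries no smaller p exists, so the threshold of 0.05 is out of reach here.

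The roles were then set against each other within each library, as differences of median log2(TPM+0.1), with no test because the genes were chosen with results known. By their medians, cholesterol enzymes lay below the regulators. The difference was -2.14 ± 0.10 for the mevalonate pathway and -2.46 ± 0.22 for the steps from squalene on (SD, n = 4). Without the length correction these differences were -3.88 and -3.29. The median regulator was Scap, thus 4.42-fold and 5.51-fold above the enzyme medians. Insig1 (29.97 TPM) and Insig2 (18.4 TPM) lay within the range of the enzymes, below Hmgcs1, Mvd and Ebp. Both enzyme medians also lay below that of the genes of export, transport and storage, by -0.36 ± 0.10 and -0.68 ± 0.05. Each of these 4 differences was negative in 4 of 4 libraries. The export median was the level of Npc1 (26.9 TPM), and the groups overlapped. Abca1 (18.5 TPM) and Soat1 (17.4 TPM) lay below the mevalonate median of 20.9 TPM. Ebp (50.6 TPM), Hmgcs1 (48.4 TPM), Mvd (42.2 TPM) and Dhcr7 (28.8 TPM) lay above Npc1. Each SD is over libraries and does not measure the spread between genes. With the mean over genes in place of the median, the differences from export were -1.81 and -1.71, and without the length correction -2.68 and -2.08. The mevalonate pathway lay above the later steps by 0.32 ± 0.14, but below them by -0.11 with means and -0.60 without the length correction. The later steps lay below fatty acid genes by -0.33 ± 0.26, from -0.58 in replicate 1 to -0.00356 in replicate 2, with -0.99 over detected genes alone and 0.05 with transcript lengths. The sign of the differences between mevalonate, later steps and fatty acid genes thus changed with the setting. Each of the 4 differences from regulators and export stayed negative in every alternative run, while their sizes changed.

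Spread between libraries was tested in edgeR on all 12554 genes with enough counts, asking whether a gene varied more than the trend for its level. Of all genes tested, 1.13% were called at an adjusted p of 0.05, and of the 35 genes of this set that could be tested 2 were called, Scd1 and Abca1. The median range between the highest and lowest library was 0.22 on the log2 scale for these genes and 0.22 for all genes tested. The smallest ranges were those of Lss (0.10) and Npc2 (0.10). Of the 33 genes not called, Mvd had the widest range at 0.47 and the smallest adjusted p in edgeR (0.365), with an unadjusted p of 0.00825. Replicate 4 was the highest library for 8 of the 17 cholesterol enzymes and replicate 3 for none, while among all genes tested replicate 4 was highest for 20.5% and replicate 3 for 24%. These shares are a description, since genes of 1 library are not independent.

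**Figure D3:**
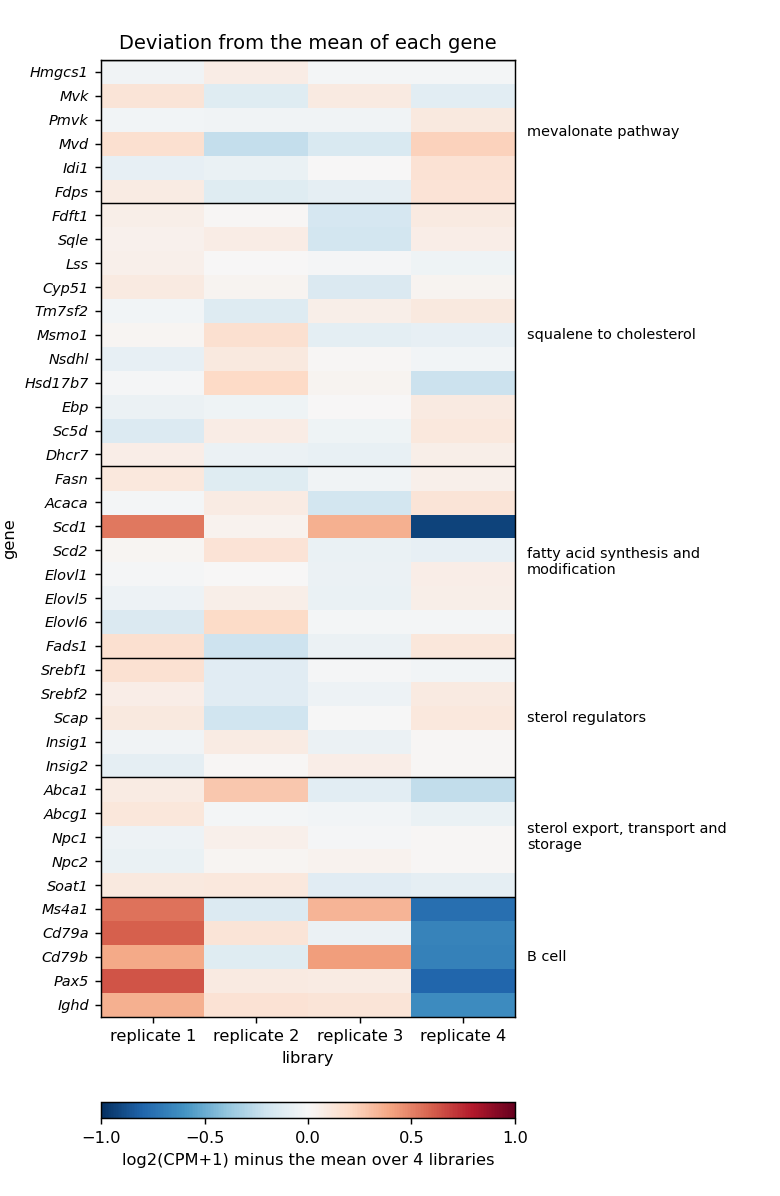
Deviation of each library from the gene's mean, in log2(CPM+1), for the 35 tested genes and 5 B cell markers. Red is above and blue below the mean. Scd1 stands out with -0.93 in replicate 4 and 0.53 in replicate 1, and the B cell markers are lowest in replicate 4.

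Scd1 had 158, 258, 125 and 100 counts in replicates 1 to 4, which is 6.21, 4.13, 5.402 and 1.63 CPM. Replicate 4 lay below the other 3, and the highest library was 3.81-fold above the lowest. The call in edgeR had an adjusted p of 0.000167. It ended without replicate 4, with an adjusted p of 1 and an unadjusted p of 0.146, and held without each of the others. The companion gene Scd2, at 48.9 to 59.3 TPM, was not called.

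Markers of B cells were low in replicate 4, as Scd1 was. All 6 were called in the same fit and all 6 were lowest in replicate 4. Their summed level was 52.5, 37.3, 40.1 and 17.9 TPM in replicates 1 to 4, which is the order of Scd1 over the libraries. Singly, Cd79a, Cd79b, Pax5 and Ighd had other orders. Replicate 4 was also lowest for 3 of 3 tested dividing cell markers and 4 of 6 regulatory T cell markers. The same held for the 1 tested dendritic cell marker, 1 of 3 tested macrophage markers and 1 of 5 T cell markers. Among all genes tested it was lowest for 23%. Ms4a1, a B cell surface protein gene, had 3.58, 1.86, 2.98 and 0.864 CPM, with an adjusted p of 0.00768 in edgeR. In bulk RNA, fewer cells of a type and less RNA per cell cannot be told apart. The part of B cells in the level of Scd1 was not tested. Adipocyte markers, of a cell type rich in Scd1, summed to 0.0668 to 0.207 TPM.

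**Figure D4:**
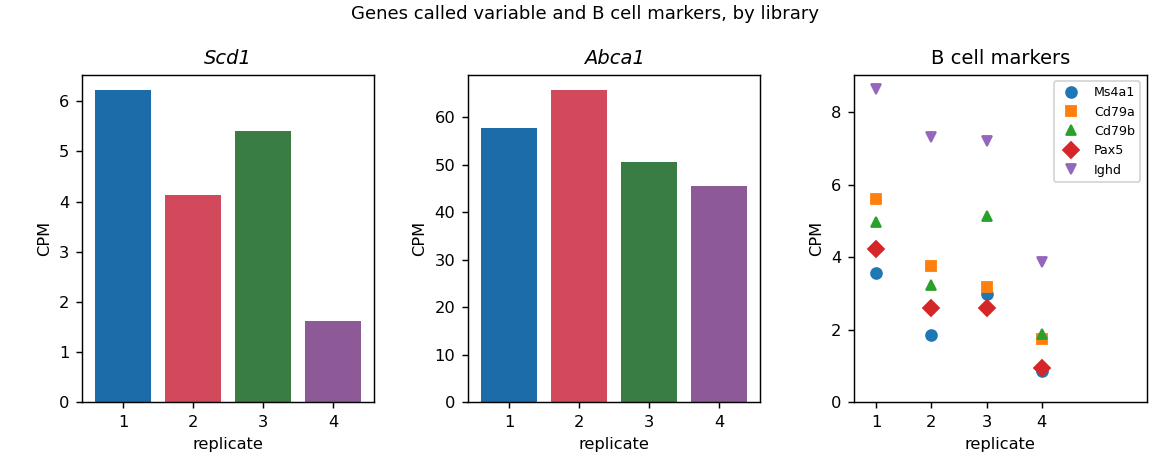
Scd1, Abca1 and 5 B cell markers in CPM scaled by TMM, by replicate, with axes from 0. Scd1 is lowest in replicate 4 at 1.63 CPM and Abca1 in replicate 4 at 45.6 CPM, and each B cell marker is also lowest in replicate 4.

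Abca1 had 57.7, 65.6, 50.5 and 45.6 CPM in replicates 1 to 4, a 1.44-fold range, with replicate 2 highest. The call in edgeR had an adjusted p of 0.0474, close to the threshold. With DESeq2 size factors it was 0.056, and with DESeq2's own dispersion trend 0.115, and it ended without each single library, with adjusted p-values from 0.0532 to 0.885. Without the filter on low counts it was 0.5945 and with a common dispersion 0.268. Among the alternatives the call held only with at least 50 counts required in every library, at an adjusted p of 0.04999 in edgeR. Macrophage markers, of a cell type rich in Abca1, summed to 14.7, 17.7, 17.4 and 15.4 TPM, and dendritic cell markers to 0.892, 1.17, 0.831 and 0.505 TPM. Their part in the level of Abca1 was not tested.

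The wider pathway was described by 75 further genes in 6 lists, of which 60 reached 1 TPM in all libraries and none of the 62 tested in edgeR was called variable, with 0 at an unadjusted p under 0.05. With the DESeq2 dispersion trend 0 were called as well, and without the filter on low counts 1 of 69 was, Cyp27a1, which had 18, 7, 0 and 1 counts in replicates 1 to 4. In precursor supply 8 of 9 were detected, with Acly, which makes cytosolic acetyl-CoA from citrate, at 221 ± 6.69 TPM and Acss1 at 82.7 ± 3.905 TPM at the top, Idh1 at 8.37 ± 0.877 TPM near the foot and no count for Me1, which makes NADPH. For Me1, 3 counts would have given up to 0.117 TPM. All 8 partner genes of sterol enzymes were detected, from Lbr, which can replace Tm7sf2 in its step, at 245 ± 12.8 TPM and Cyb5a at 125 ± 3.73 TPM to Cyb5r3 at 30.7 ± 0.703 TPM and Erg28 at 19.97 ± 0.622 TPM. Lbr thus lay above Tm7sf2 in every library.

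Genes that branch off to isoprenoids were all detected, 12 of 12, from the prenyl transferase subunits Rabggta (119 ± 2.17 TPM) and Rabggtb (83.3 ± 5.695 TPM) down to Pdss2 (4.99 ± 0.253 TPM) and Pdss1 (4.65 ± 0.2097 TPM), which make the tail of ubiquinone. All 11 genes of SREBP cleavage and the LXR system were detected. The LXR gene Nr1h2 had 183, 154, 169 and 182 TPM, while its relative Nr1h3 had 2.03, 2.09, 2.98 and 3.08 TPM. The protease Mbtps2, which makes the second cut in SREBPs, had 6.52 ± 0.828 TPM, and 28.4% of the exon bases of Mbtps2 lie in exons of Yy2.

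Of the 22 other fatty acid genes 13 were detected, led by the reductase Tecr (233 ± 10.95 TPM) and the acyl-CoA synthetase Acsl5 (144 ± 13.4 TPM). No count was found for Hacd1, Elovl2, Elovl3 and Scd3, for which 3 counts would have given at most 0.301 TPM. In uptake and turnover 8 of 13 were detected, led by the transporter Abca7 (254 ± 18.3 TPM) and the lysosomal lipase Lipa (174 ± 8.03 TPM). Vldlr had 2 counts over the 4 libraries and Ch25h, which makes an oxysterol, had none.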

How the data were processed

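The authors deposited raw fragment counts per gene, 1 file for each of 4 libraries. Per the file headers, featureCounts 1.4.6-p4 counted reverse-stranded pairs over exons of GENCODE M13 on mm10, and fragments with several alignments or in several genes were left out. The aligner and its version are not given in the sources used here beyond a BAM named for STAR. Exon lengths came from the same deposited files, and TPM and CPM were computed here from the counts. Symbols and coordinates came from GENCODE M21, which matched 50376 of 50600 genes, and promoters from RefSeq (GRCm38.p6).

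All 36 genes and the lists were chosen with earlier results of these data known. Named genes are those 36, the 2 highest and 2 lowest of each further pathway list and any called variable, and the highest gene of each marker list with every gene lacking a count. Some genes under this rule are not reported here. Ms4a1, Fabp4 and the other genes named outside this rule were named after their values were seen. A gene was detected at 1 TPM in all libraries, 3 counts served as the floor, and 0.1 TPM was added before log2. Floors cover counting error only. The test of variability ran in edgeR 4.0.16 under R 4.3.3. It used TMM scaling, the filterByExpr filter and an intercept-only fit, comparing the residual deviance at the trended dispersion with chi-square on 3 degrees of freedom, at a Benjamini-Hochberg adjusted p of 0.05. The biological coefficient of variation was 0.0849. On simulated counts it recovered 139 of 200 changed genes, 42 of 50 at a 2-fold change, with 1 false call. Those counts were drawn at the same trended dispersion, so they could not show an error in that trend. DESeq2 1.42.0 gave alternatives. No library was a resampling of another by a chi-square test of counts. Python 3.11.15 with scipy 1.17.1, pandas 2.3.3 and numpy 2.4.6 gave the remaining values, and matplotlib 3.10.9 drew the plots. Alternatives changed the filter, scaling, dispersion, added TPM, unit and length, and left out each library. Transcript length as an alternative was chosen after seeing the data.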

Additional observations from a re-analysis of the deposited data

Results flagged for a closer look

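Of 64 values tested for 1 library far from the other 3, 2 passed the 95% critical value of Dixon's test, and chance alone flags about 5% of such groups. Hmgcs1 had 52.03 TPM in replicate 2, while the others lay between 46.9 and 47.3 TPM, and the gap was 0.922 of the range. Fdft1 had 19.4 TPM in replicate 3, while the others lay between 22.8 and 23.2 TPM, and the gap was 0.89 of the range. Neither gene was called variable in edgeR.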

How the results depend on the processing

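Genes called variable numbered 142, and 88 without the filter on low counts, 352 with a common dispersion and 60 to 85 when 1 library was left out. Of the 36 genes 2 were called, and again 2 with at least 50 counts required in every library. The number was 1 (Scd1) with DESeq2 size factors, 1 without the filter and 1 with a common dispersion. It was 1 with the DESeq2 dispersion trend and 0 to 1 when 1 library was left out. The number detected was 32 to 35 in every alternative. Insig1 over Insig2 reversed to -0.57 with transcript lengths, and the other 7 ratios kept their sign in every alternative run. With means over genes, mevalonate minus export was -1.81, squalene minus export -1.71, squalene minus regulators -2.05, mevalonate minus squalene -0.11 and squalene minus fatty acid -0.0402. With CPM the differences were -2.68, -2.08, -3.29, -0.60 and -0.71 in that order, and mevalonate minus regulators was -3.88. With transcript lengths mevalonate minus export was -0.57, squalene minus export -1.06, mevalonate minus squalene 0.49 and squalene minus fatty acid 0.0475. With detected genes alone squalene minus fatty acid was -0.99. Causes were not tested. Transcript lengths changed TPM by 0.297 to 1.997 times, over 1.5 times in either direction for 14 genes. No paired analysis was possible because there is 1 group. Depth differed 2.70-fold between libraries and limits Fads2, with 29 counts in all.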

Other observations

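Cyp27a1, a sterol hydroxylase that makes an oxysterol and that was named after its values were seen, had 18, 7, 0 and 1 counts in replicates 1 to 4. It was too low for the filter of the edgeR test and was called only without that filter. Il2ra, a marker of regulatory and activated T cells, had 10.1, 5.81, 15.04 and 5.19 CPM, with an adjusted p of 1.19e-07 in edgeR. Like Scd1 it was lowest in replicate 4, but it was highest in replicate 3, where Scd1 was highest in replicate 1.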
